A study of Homo sapiens with 32 samples.

Results

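The aminoacyl-tRNA synthetases are the enzymes that attach each amino acid to its transfer RNA. They were taken from the measured genes by symbol: a letter for the amino acid followed by ARS, with or without a final 2, plus the phenylalanine subunits FARSA and FARSB. The rule found 36 of 13133 genes. By symbol alone, the 17 ending in 2 were classed as mitochondrial and the other 19 as cytosolic. EPRS, which the rule also names, was not analysed here.

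HepG2, a human hepatoma line with many hepatocyte functions, was given silver nanoparticles in the medium, 1.2 ug/mL in every treated group. Coatings were citrate, branched polyethylenimine (bPEI) and polyethylene glycol (PEG), and control cells received medium alone (NoNP). Lysates were taken at 6, 12 and 24 h, which gives 12 groups, 8 of them with 3 libraries and 4 with 2 (NoNP 24 h, bPEI 24 h, PEG 6 h and citrate 6 h). Transcripts were measured by TempO-Seq, in which pairs of short detector probes are joined on their target RNA and the joined pairs are sequenced. The line is a single tumour-derived culture. Whether the libraries of a group were grown apart is not in the labels, and the p-values thus reflect library-to-library spread, which may be technical. The labels give no plate or run, so anything technical that went with time cannot be told apart from time. In lysates, fewer cells and less RNA per cell cannot be told apart either.

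A synthetase spends ATP to activate its amino acid and then loads it onto the matching tRNA, which carries it to the ribosome. Nearly all cytosolic and mitochondrial members come from separate genes, and the mitochondrial ones, made in the cytosol and imported, supply translation of the respiratory chain subunits that the organelle encodes. In animals several cytosolic members are bound in a multi-synthetase complex, here DARS, IARS, KARS, LARS, MARS, QARS and RARS, while the others work free. When uncharged tRNA accumulates, the kinase GCN2 (EIF2AK4) phosphorylates eIF2, the factor ATF4 is translated, and ATF4 binds genes for amino acid transport, amino acid synthesis and many cytosolic synthetases.

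The site ATF4 binds together with a C/EBP partner is usually written TGATGNAAN, and its letters were looked for on both strands in the RefSeq promoter windows (GRCh38.p14), 250 bases before to 50 bases after a listed start site. A window existed for 29 of the 36 members, 15 cytosolic and 14 mitochondrial. The letters were in 1268 of 35116 promoters, which is 3.61%, and in 7 members, 6 of them cytosolic. The fixed form TGATGCAAC was in 76 promoters, 0.216% of all, and in 5 members, namely AARS, CARS, IARS, MARS and NARS. TARS held TGATGCAAT and the mitochondrial YARS2 held TGATGGAAA. These 7 windows are shown because they are what some members share that the rule did not use. They are written on the gene's own strand with the matched letters in capitals, which read as the reverse complement where the match was on the opposite strand.
AARS, chr16:70289676-70289704, minus strand: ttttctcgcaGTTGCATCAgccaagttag
CARS, chr11:3057408-3057436, minus strand: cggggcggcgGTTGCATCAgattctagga
IARS, chr9:92293693-92293721, minus strand: ttttcagcgcGTTGCATCAcctccgtgcg
MARS, chr12:57488053-57488081, plus strand: gccggttccgGTTGCATCAgcgagggatt
NARS, chr18:57621804-57621832, minus strand: ctacgctctcTGATGCAACgccggaatcg
TARS, chr5:33440956-33440984, plus strand: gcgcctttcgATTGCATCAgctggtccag
YARS2, chr12:32756076-32756104, minus strand: tccacactgcTGATGGAAAaattaagttt

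A match of letters is a description and not a measured binding site, and no binding was measured here. These genes did not share 1 course in the cells, as the values that follow show.

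Values are the authors' normalized reads, that is, reads divided by 1 factor for each library, and libraries held 1313855 to 6735072 reads. Because each gene is read by its own probes, the level of 1 gene cannot be set against that of another. Mean levels over the 32 libraries ran from 8.76 to 1576 normalized reads in the 18 tested cytosolic members, with a median of 239. They ran from 9.67 to 324 in the 13 tested mitochondrial members, with a median of 34.5. Members with a mean under 5 were left out of the tests: TARS with 54 reads in all libraries together, CARS2 with 74, PARS2 with 80, WARS2 with 24 and VARS2 with 12. FARS2, IARS, MARS, MARS2 and TARS2 were tested at medians of 8.5 to 12.5 reads per library, and their group means are the least precise. All 10 hepatocyte markers checked were present, with a summed level of 222700 to 439100 normalized reads per library. The 6 measured markers of blood, endothelial, fibroblast and squamous cells summed to 5.05 to 30.7, and COL1A2, COL3A1 and KRT5 had a median of 0.

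The 2 NoNP libraries at 24 h disagreed with each other, and every comparison with 24 h controls rests on them. Over the 31 tested members the median absolute difference between replicates B and A was 1.10 on the log2 scale, and it was 0.943 over all tested genes. In the 27 other pairs of libraries within a group this median for the members lay between 0.184 and 0.644. Replicate B read at least 2 times replicate A for 7 members and at most 0.5 times for 10. SARS measured 259.9 in A and 839.5 in B, whereas FARSB measured 391 in A and 89.2 in B. The 2 libraries held 2015520 and 1420319 reads, which is toward the low end of the series. Calls that use them are followed by what changed when each was left out. The fit gave all 12 groups 1 shared spread for each gene. Averaged over the tested genes, the variance within NoNP 24 h was 2.56 times the mean of the groups. In the other groups it was 0.413 to 1.31 times that mean. The SEs and p-values of comparisons that use NoNP 24 h are thus likely too small. Those of comparisons among groups with less variance may be too large. Examples are bPEI 12 h (0.413 times the mean), NoNP 12 h (0.640 times) and citrate 12 h (0.846 times). A bPEI library at 6 h (replicate B) also stands apart from its group, and alternatives without it and NoNP 24 h replicate B are given with the limits.

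More synthetase genes passed the test in the time steps averaged over exposures than between exposures. Those steps used more libraries than any comparison of a coating with NoNP. All tested genes showed the same order, with 43.5% and 38.4% called in the averaged steps and at most 6.12% with a coating. Between 6 and 12 h, averaged over the 4 exposures, 6 of 31 members changed (19.4%) against a background of 43.5% of all 9324 tested genes, by limma on log2(normalized reads + 1) at an adjusted p under 0.05. The members' share lay below the background, and the difference between the shares was not tested. NARS, RARS, YARS2 and NARS2 rose, and SARS2 and AARS fell. The median difference over the members was 0.08 on the log2 scale, and it was 0.03 over all tested genes.

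NARS, the asparagine enzyme of the cytosol, had the clearest rise. Its NoNP libraries measured 115, 109.9 and 172 normalized reads at 6 h and 292, 298 and 309.8 at 12 h. With bPEI the libraries measured 90.2, 51.3 and 80.99 at 6 h and 278, 255 and 194 at 12 h. With PEG they measured 109.6 and 58.97, then 224, 199 and 178. In each of these exposures every 12 h library lay above every 6 h library. Citrate was the exception, with 154 and 105 at 6 h and 199, 179 and 116 at 12 h, and its libraries overlapped. Averaged over exposures NARS rose by 1.14 ± 0.17 on the log2 scale (SE, limma adjusted p = 2.54e-06).

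SARS2, which charges mitochondrial serine tRNA, moved the other way in every exposure. NoNP libraries measured 158, 116 and 163 normalized reads at 6 h and 62.1, 31.4 and 82.3 at 12 h. The bPEI libraries measured 169.7, 332 and 196, then 74.7, 75.98 and 92.2, and the PEG libraries 255 and 195, then 54.4, 62.00 and 69.5. Citrate libraries measured 203 and 265, then 134, 182 and 100.5. No 12 h library reached a 6 h library of its exposure, and citrate had the highest mean at 12 h. The averaged SARS2 difference was -1.37 ± 0.24 on the log2 scale (SE, limma adjusted p = 2.62e-05). Its cytosolic counterpart SARS differed by -0.21 with overlapping libraries in most exposures and did not pass.

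RARS, the arginine enzyme and a member of the multi-synthetase complex, lay between 97.4 and 323 normalized reads at 6 h, with a median of 251, and between 272 and 422 at 12 h, with a median of 352. It was higher at 12 h in 4 of 4 exposures, without overlap in the 3 coated ones, and rose by 0.66 ± 0.16 on the log2 scale (SE, limma adjusted p = 0.001). AARS, the alanine enzyme, fell by 0.45 ± 0.12 on the log2 scale (SE, limma adjusted p = 0.0031), with a median of 549 normalized reads at 6 h and 386 at 12 h. AARS libraries did not overlap in NoNP and PEG and overlapped in bPEI and citrate. These 4 members (NARS, SARS2, RARS and AARS) passed in each of the 22 fits that left out 1 library. YARS2, the mitochondrial tyrosine enzyme, rose by 0.72 ± 0.27 and passed in 14 of those fits. NARS2, the mitochondrial asparagine enzyme, rose by 0.39 ± 0.16 and passed in 6 of them.

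**Figure D1:**
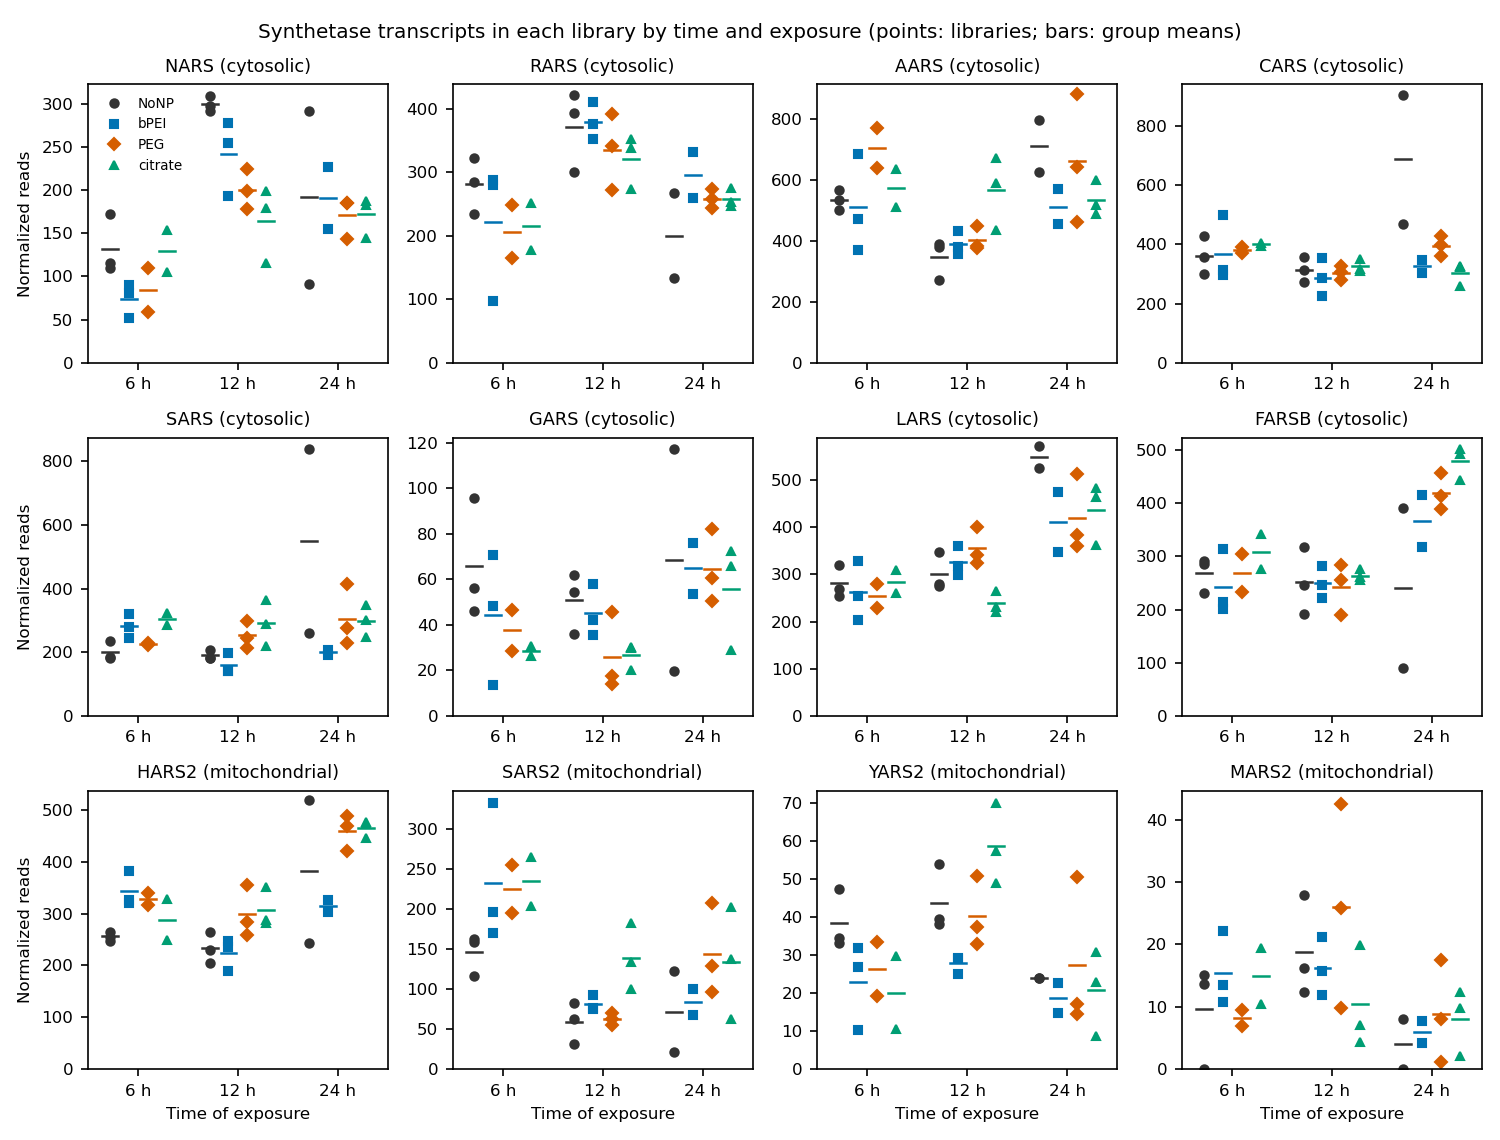
Normalized reads (vertical axis) of 12 synthetase genes in each library at 6, 12 and 24 h, by exposure. Points are libraries and bars are group means. The 12 h SARS2 points lie under the 6 h points of the same exposure, NARS points lie above them outside citrate, and the pair of NoNP points at 24 h is far apart for SARS, FARSB, GARS, HARS2 and NARS.

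The late step uses the same 12 h libraries as the early step. A shift confined to 12 h would therefore give any gene opposite signs in the 2 steps. Between 12 and 24 h, averaged over the 4 exposures, 11 of 31 members changed (35.5%), against 38.4% of all tested genes. The 7 that rose were AARS, CARS, FARSB, GARS, HARS2, LARS and SARS, and the 4 that fell were IARS, MARS2, RARS and YARS2. Over all genes 18.4% rose and 20% fell. Among free cytosolic members 5 of 11 rose and 0 fell, while in the complex 1 of 7 (LARS) rose and 2 (IARS and RARS) fell. The difference between these counts was not tested. The split changed when the NoNP libraries were not used. Averaged over the 3 coatings alone, FARSB and GARS (free) and LARS (complex) still passed. AARS, CARS, SARS, IARS and RARS did not.

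LARS, the leucine enzyme, which is also known as a leucine sensor for the mTORC1 pathway, measured 275, 347 and 279 normalized reads in NoNP at 12 h and 571 and 526 at 24 h. Citrate libraries measured 231, 221 and 264, then 464, 483 and 362. The 24 h values lay above all 12 h values in these 2 exposures. With bPEI LARS measured 361, 318 and 299, then 474 and 347, and with PEG 342, 401 and 324, then 513, 359.9 and 383, so these overlapped. LARS rose by 0.57 ± 0.11 on the log2 scale on average (SE, limma adjusted p = 0.000128).

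HARS2, the mitochondrial histidine enzyme, rose by 0.58 ± 0.12 on the log2 scale (SE, limma adjusted p = 0.000154). Its bPEI libraries measured 236, 189 and 248 normalized reads at 12 h and 326 and 302 at 24 h. Those with PEG measured 259, 283 and 354, then 421, 487 and 469, and those with citrate 282, 351 and 287, then 445, 473 and 477. All 3 coatings were without overlap. The NoNP libraries measured 205, 265 and 229 at 12 h and 242 and 519.8 at 24 h, and overlapped because of replicate A. HARS, the cytosolic histidine enzyme, differed by 0.08 ± 0.09 over the same step and did not pass.

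HARS and HARS2 lie head to head on chromosome 5, transcribed away from each other from start sites 84 bases apart. The stretch between them is shown because both genes share it, HARS2 having passed in this step and HARS not. The difference between the 2 genes was not tested. It is read on the plus strand of GRCh38.p14 and held no match to TGATGNAAN.
chr5:140691371-140691454: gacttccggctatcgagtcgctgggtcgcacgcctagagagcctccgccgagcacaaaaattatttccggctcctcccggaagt

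AARS reversed its earlier course and rose by 0.51 ± 0.12 on the log2 scale (SE, limma adjusted p = 0.00123), from a median of 386 normalized reads at 12 h to 585 at 24 h. Its NoNP libraries went from 379, 271 and 389 to 796 and 626, whereas citrate libraries measured 588, 672 and 436 and then 487, 517 and 600.2 and overlapped. YARS2 fell by 0.94 ± 0.27 (SE, limma adjusted p = 0.00711). It went from 70.1, 48.9 and 57.4 to 22.9, 30.8 and 8.61 normalized reads with citrate. Only PEG overlapped for YARS2. RARS fell by 0.50 ± 0.16 (SE, limma adjusted p = 0.012), back to a median of 259 normalized reads. LARS, HARS2, AARS and YARS2 passed in all 22 fits that left out 1 library, MARS2, RARS, CARS and SARS in 21, FARSB in 18, IARS in 7 and GARS in 6. The IARS call held in only 2 of 8 other settings and was lost with a pseudocount of 5, no filter, equal library totals, edgeR, only the groups compared and the 3 coatings alone. GARS was lost with no filter and with a replicate block.

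The 24 h controls weigh on this step. Averaged over the 3 coatings alone, a fit added after the data were seen, 5 members passed: LARS (0.47), HARS2 (0.58), FARSB (0.73) and GARS (0.97) rose, and YARS2 fell by 0.97. AARS was then at 0.33 (limma adjusted p = 0.0693), CARS at 0.16 and SARS at 0.21. Without NoNP 24 h replicate B, 9 members passed (34.6% of all genes): CARS, MARS2, RARS and SARS were lost, and EARS2 (-1.21) and DARS (0.29) were gained. Without replicate A, 11 passed (43.4% of all genes): FARSB, GARS and IARS were lost, and NARS (-0.55), NARS2 (-0.54) and SARS2 (0.54) were gained. In the same fit over the coatings, the step from 6 to 12 h gave 6 members: NARS (1.12), RARS (0.74), YARS2 (0.89) and NARS2 (0.50) rose, SARS2 fell by 1.36 and AARS fell by 0.39. The share of all genes called over the coatings alone is not given here. The counts of 5 and 6 thus cannot be read as particular to the members.

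**Figure D2:**
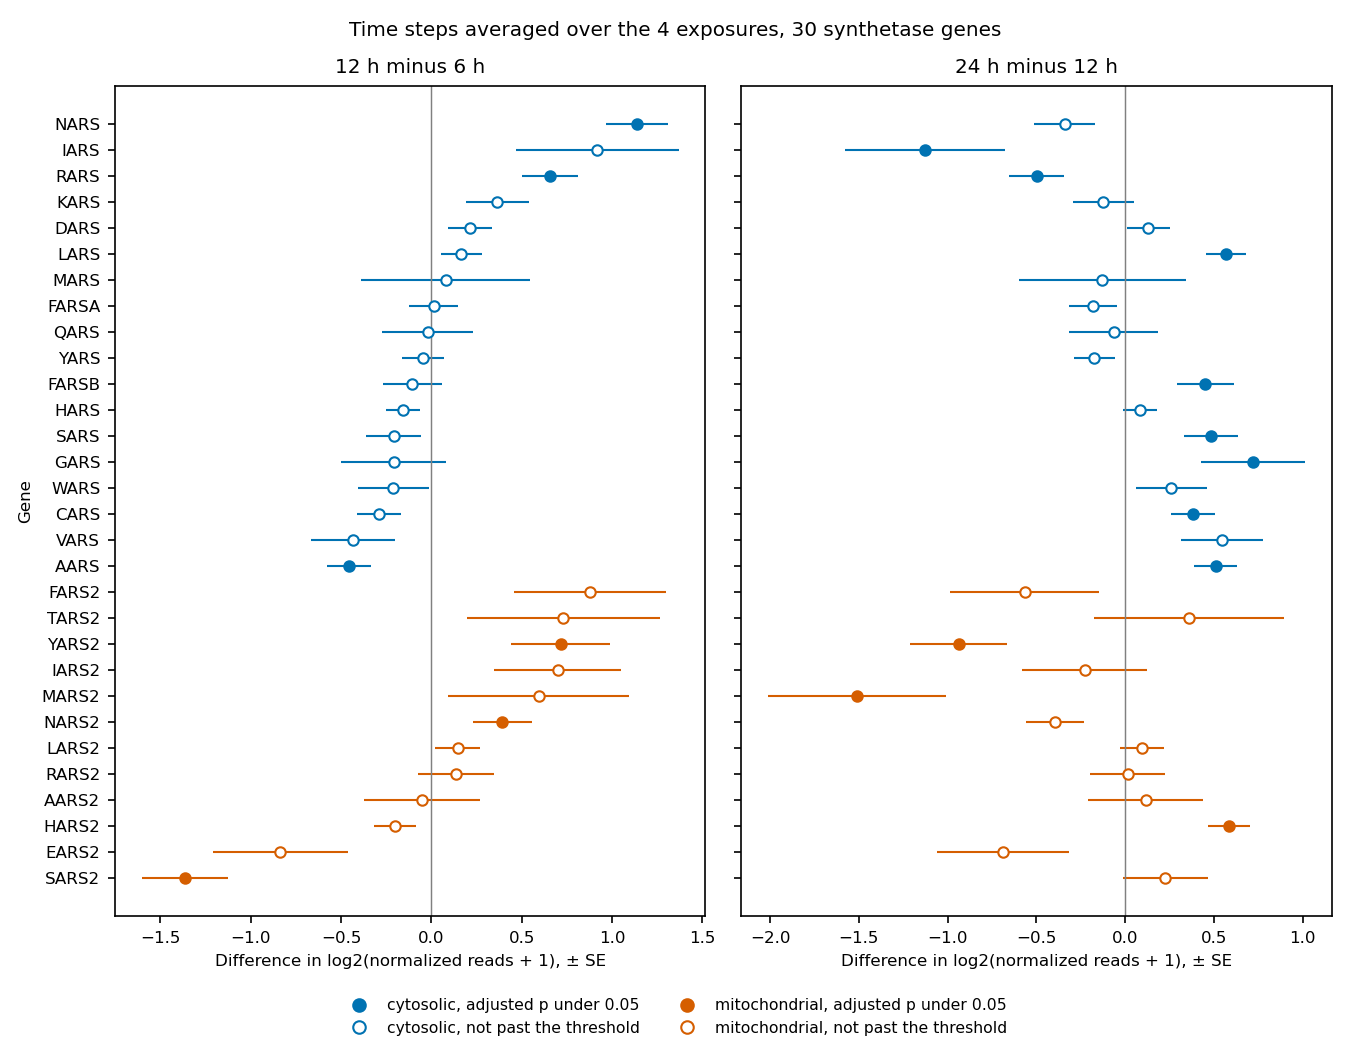
Difference in log2(normalized reads + 1), horizontal axis, for 30 of the 31 tested members between 6 and 12 h and between 12 and 24 h, averaged over the 4 exposures. Circles are estimates, lines are ± 1 SE, filled circles have an adjusted p under 0.05, blue is cytosolic and orange is mitochondrial. The 6 filled circles on the left and 11 on the right lie on both sides of 0.

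In control cells alone the early step showed the same pair of genes at its head. From 6 to 12 h, 2 of 31 members changed in NoNP (background 11.8%): NARS rose by 1.20 ± 0.32 (SE, limma adjusted p = 0.0123) and SARS2 fell by 1.39 ± 0.45 (SE, limma adjusted p = 0.0402) on the log2 scale. Leaving out NoNP 6 h replicate A or B ended both calls, and SARS2 was kept in 1 of 6 such fits. From 12 to 24 h, 5 members changed in NoNP (background 18.3%), all of them cytosolic. AARS rose by 1.04 ± 0.26, LARS by 0.87 ± 0.24, CARS by 1.06 ± 0.26 and SARS by 1.29 ± 0.32, and RARS fell by 0.96 ± 0.33. AARS and LARS passed whichever 24 h library was left out. Without replicate B, 4 members passed (12.9%, against 8.14% of all genes): AARS, LARS, EARS2 and IARS, the last 2 listed at 0 in replicate A. CARS was then at 0.59, SARS at 0.45 and RARS at -0.46, none past the threshold. RARS was also lost with no filter and with edgeR. Without replicate A, 14 members passed (45.2%, against 30.9% of all genes). When only these 2 groups were fitted, 0 passed. The interaction of exposure and time passed for 0 of 31 members (background 0.665%) by limma and by edgeR. At an unadjusted p under 0.05 it had 3 members (SARS, AARS2 and CARS) and 1205 of all 9324 tested genes. Without NoNP 24 h replicate A it passed for 5 (16.1%, against 10.2% of all genes): CARS, DARS, FARSB, NARS and SARS. Without replicate B it passed for 0, against 1.01% of all genes.

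At 6 and 12 h limma called 0 synthetase genes with a coating against NoNP of the same time. The spread used was shared with NoNP 24 h, so 0 calls do not show that the genes stayed unchanged. At 6 h limma called 0 of 31 members with bPEI (background 2.01%), 0 with PEG (background 0.0215%) and 0 with citrate (background 0.279%). The counts at an unadjusted p under 0.05 were 5, 0 and 1, and over all 9324 tested genes they were 1774, 787 and 1004. At 12 h limma called 0 with bPEI (background 0.0965%), 0 with PEG (background 0.654%) and 0 with citrate (background 6.12%). Here 0, 0 and 5 members were at an unadjusted p under 0.05, and 446, 965 and 1946 of all 9324 tested genes. edgeR called 0 members in each of these 6 comparisons except AARS with citrate at 12 h.

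The smallest p-values at 6 h belonged to YARS, the cytosolic tyrosine enzyme, and NARS with bPEI. YARS measured 197, 171 and 123 normalized reads with bPEI and 217, 276 and 269 with NoNP, without overlap, a difference of -0.65 ± 0.22 on the log2 scale (SE, limma adjusted p = 0.0987). Without bPEI 6 h replicate A it passed at -0.80. NARS differed by -0.84 ± 0.32 with bPEI (SE, limma adjusted p = 0.151) and by -0.68 ± 0.36 with PEG (SE, limma adjusted p = 0.628). AARS2, the mitochondrial alanine enzyme, measured 28.1, 4.31 and 23.6 normalized reads in NoNP, 45.8, 47.9 and 31.2 with bPEI, 23.8 and 41.00 with PEG, and 35.02 and 54.7 with citrate. AARS2 lay above the controls in every bPEI and citrate library and overlapped them with PEG. Its differences were 1.42 ± 0.61, 1.05 ± 0.68 and 1.52 ± 0.68 on the log2 scale (SE, limma adjusted p = 0.195, 0.694 and 0.402). SARS with citrate differed by 0.61 ± 0.32 (SE, limma adjusted p = 0.501).

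At 12 h the members nearest the threshold were AARS, SARS2 and NARS with citrate. AARS measured 588, 672 and 436 normalized reads with citrate and 379, 271 and 389 with NoNP, without overlap, a difference of 0.70 ± 0.23 on the log2 scale (SE, limma adjusted p = 0.0627). Its adjusted p was 0.0497 with a mean of at least 20, 0.0308 with equal library totals and 0.0436 with edgeR, so this call turns on the method. SARS2 stood 1.29 ± 0.45 higher (SE, limma adjusted p = 0.0823) and NARS differed by -0.90 ± 0.32 (SE, limma adjusted p = 0.0923), both without overlap. AARS, SARS2 and NARS passed when the fit held only the citrate and NoNP libraries of 12 h. AARS2 measured 50.7, 54.2 and 51.9 with citrate and 18.6, 34.2 and 18.4 with NoNP, a difference of 1.17 ± 0.61 (SE, limma adjusted p = 0.273). With bPEI the smallest p belonged to LARS2 (0.40), at an adjusted p of 1.0 by limma. With PEG it belonged to GARS (-1.11) and NARS (-0.59), at adjusted p = 0.488 and 0.564 by limma. Summed hepatocyte markers at 12 h were 222700 to 248500 with citrate and 336000 to 337100 in NoNP, and their part in these differences was not tested.

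**Figure D3:**
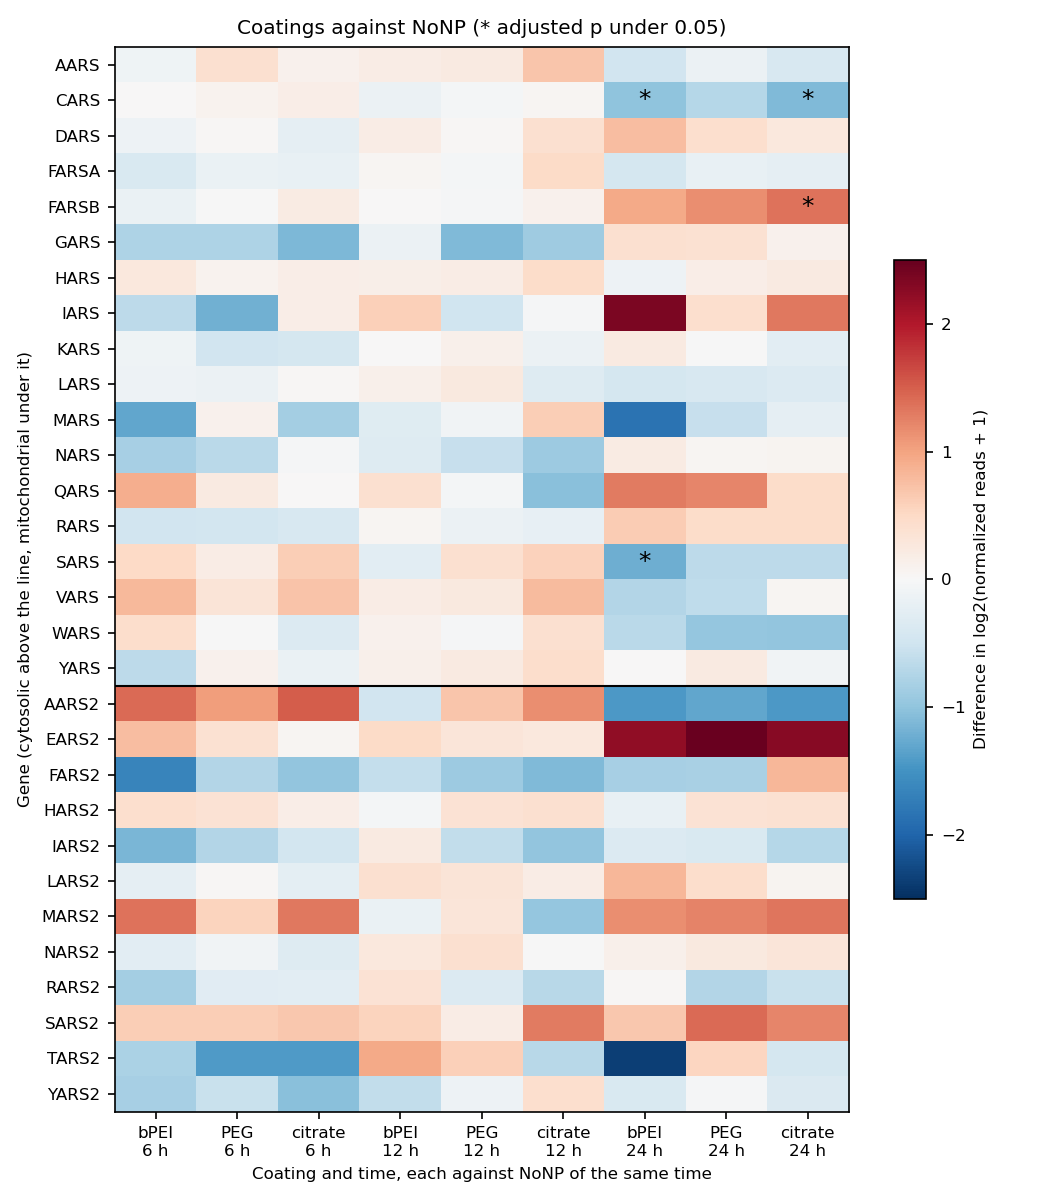
Difference in log2(normalized reads + 1) between each coating and NoNP of the same time, as colour (red higher and blue lower with the particles), for 18 cytosolic members above the line and 12 of the 13 tested mitochondrial members under it. Stars mark an adjusted p under 0.05: CARS and SARS with bPEI and CARS and FARSB with citrate, all at 24 h.

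At 24 h few members passed, and each of those calls was lost without NoNP 24 h replicate B. With bPEI 2 of 31 members passed (background 4.55%), with PEG 0 (background 2.83%, 0 by edgeR) and with citrate 2 (background 4.2%). With PEG 6 members were at an unadjusted p under 0.05, and 1550 of all 9324 tested genes. CARS, the cysteine enzyme, measured 470.1 and 907 normalized reads in NoNP, 348 and 305 with bPEI, 428, 398 and 362 with PEG, and 260.2, 328 and 322 with citrate. Both control libraries lay above all 8 coated ones. CARS differed by -1.001 ± 0.28 with bPEI (SE, limma adjusted p = 0.034), by -1.11 ± 0.26 with citrate (SE, limma adjusted p = 0.01) and by -0.72 ± 0.26 with PEG (SE, limma adjusted p = 0.127). Without replicate B, CARS differed by -0.53 with bPEI and -0.64 with citrate and no longer passed.

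SARS, the cytosolic serine enzyme, measured 208 and 192 normalized reads with bPEI against 259.9 and 839.5 in NoNP. The bPEI libraries lay below both controls, but replicate A was close to them. The SARS difference was -1.22 ± 0.35 (SE, limma adjusted p = 0.0394), and it was -0.38 without replicate B. FARSB, the beta subunit of the cytosolic phenylalanine enzyme, measured 493, 503 and 444 with citrate against 391 and 89.2 in NoNP. FARSB was higher by 1.35 ± 0.34 with citrate (SE, limma adjusted p = 0.0191), and the difference was 0.29 without replicate B. With PEG it was 1.16 ± 0.34 (SE, limma adjusted p = 0.0584). AARS2 lay lower in coated cells at 24 h, by differences of -1.43 with bPEI, -1.31 with PEG and -1.44 with citrate, none past the threshold, and NoNP replicates A and B measured 40.1 and 109.

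Which members passed at 24 h depended on the control library kept. With replicate B alone as the control, CARS and SARS were lower and DARS and FARSB higher with each of the 3 coatings, QARS was higher with bPEI and PEG, and WARS was lower with PEG and citrate. These fits called 17.5% of all genes with bPEI, 8.75% with PEG and 8.78% with citrate. With replicate A alone, EARS2 and SARS2 were higher with each coating, IARS with bPEI and citrate and HARS2 with PEG and citrate, and IARS2 was lower with citrate. EARS2 and IARS were listed at 0 in replicate A, where 3 reads correspond to 4.81 normalized reads. With replicate A alone the shares of all genes were 3.81%, 6.65% and 9.14%. With EARS2 the averaged control gave differences of 2.21, 2.47 and 2.28 for bPEI, PEG and citrate (limma adjusted p = 0.147, 0.0834 and 0.097). CARS and LARS were the 2 members above all 8 coated libraries in both control libraries, and 0 members lay below them in both. The same count was not made over all tested genes, so it cannot be read as particular to the members.

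**Figure D4:**
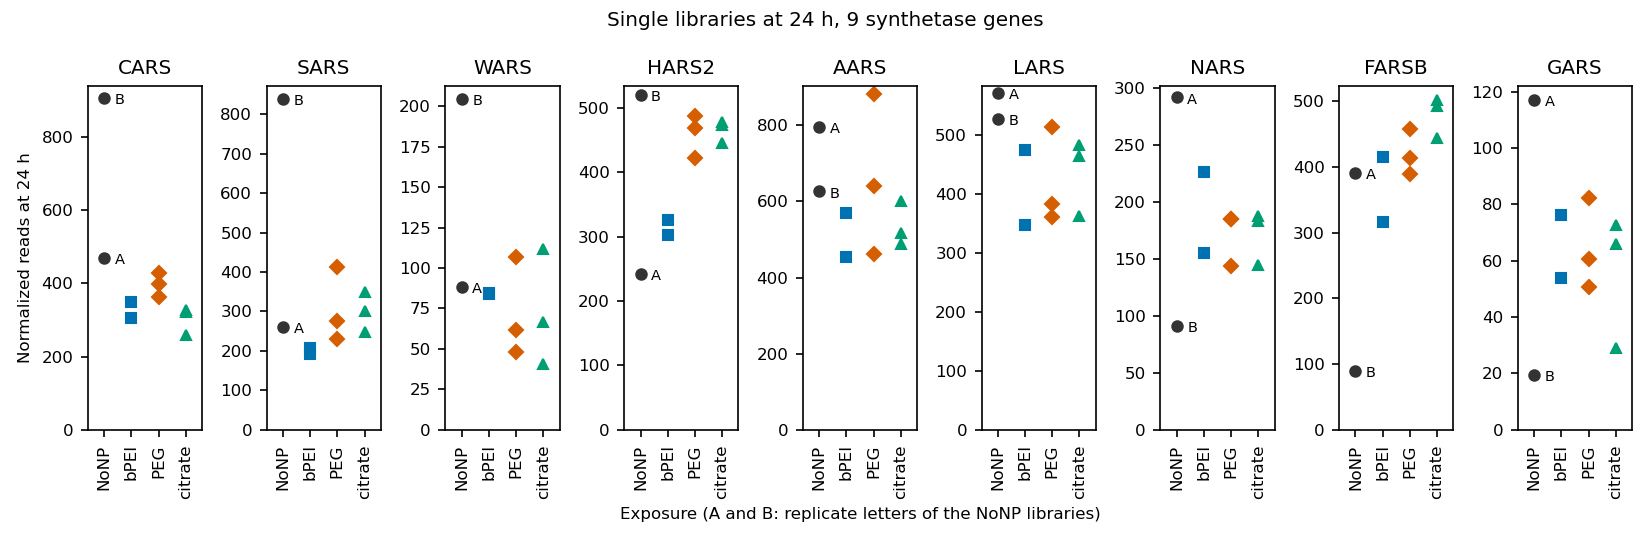
Normalized reads (vertical axis) of 9 synthetase genes in the single libraries at 24 h, by exposure, with the NoNP replicates marked A and B. Replicate B is above the coated libraries for CARS, SARS, WARS, HARS2 and LARS and below them for NARS, FARSB and GARS.

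No member separated the 3 coatings from each other. The F test over the coatings passed for 0 of 31 members at 6 h (background 0.107%), 0 at 12 h (background 0.418%) and 0 at 24 h (background 0.15%), by limma and by edgeR. The counts at an unadjusted p under 0.05 were 1 (YARS), 5 (QARS, SARS, LARS, AARS2 and RARS2) and 2 (LARS2 and TARS2). Over all 9324 tested genes these counts were 531, 1140 and 867. With 2 or 3 libraries a group, this does not show that the coatings act alike.

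Across the 12 groups, the ratio of the highest to the lowest group mean ran from 1.42 to 6.45 in the cytosolic members, with a median of 2.28, and from 1.66 to 11.4 in the mitochondrial ones, with a median of 3.998. The mitochondrial members also had the lower median level, 34.5 against 239 normalized reads, and the part of counting error in their wider range was not tested. The highest group mean was at 24 h for 10 of 18 cytosolic members, of which 7 were in NoNP 24 h, and for 6 of 13 mitochondrial members, of which 2 were. NoNP 24 h also had the lowest mean for FARSB, RARS, EARS2 and MARS2. That group is 2 discordant libraries with a variance of 2.56 times the mean of the groups. The same counts were not made over all tested genes. Among the tested members HARS had the smallest ratio of highest to lowest library, 2.04, between 1125 and 2294 normalized reads.

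The members with the ATF4-type letters followed different courses. From 6 to 12 h NARS rose and AARS fell, while CARS, IARS and MARS did not pass. From 12 to 24 h AARS and CARS rose, IARS fell, and NARS (-0.34) and MARS (-0.13) did not pass. The IARS call was lost in 6 of 8 other settings, CARS was at 0.16 over the 3 coatings, and NARS passed at -0.55 without NoNP 24 h replicate A. YARS2 rose and then fell, and TARS was too low to test. Of the 10 tested members reported as ATF4 targets, 2 passed in the early step (NARS higher and AARS lower), which is 20% against 43.5% of all genes. In the late step 6 passed (5 higher and IARS lower), 60% against 38.4%. Of these 6, GARS and LARS passed over the 3 coatings alone, and AARS, CARS, SARS and IARS did not. Without NoNP 24 h replicate A or B the late count was 5 or 4, 50% against 43.4% and 40% against 34.6%. The difference between these shares was not tested.

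The wider amino acid response was a list of 19 genes with 16 tested. From 6 to 12 h 9 of 16 passed, 2 higher and 7 lower, which is 56.2% against 43.5% of all genes. ATF4, the response's main factor, fell by 1.06 ± 0.13 on the log2 scale (SE, limma adjusted p = 4.88e-08), and its partner CEBPB fell by 1.67 ± 0.18. ATF5, SLC7A5, SLC3A2, GCN1 and DDIT4 also fell, and SLC38A2 (2.29) and DDIT3 (0.45) rose. From 12 to 24 h 5 of 16 passed (31.2% against 38.4%), with CEBPB (1.38) and GCN1 (0.71) higher and EIF2AK4, SLC7A11 and SLC3A2 lower. The same 5 passed without NoNP 24 h replicate B. Without replicate A, SLC3A2 was lost and ATF5 (0.62) and VLDLR (-0.37) were gained. In NoNP alone 4 passed in the early step (25% against 11.8%), all lower (ATF4, ATF5, CEBPB and SLC7A5). In the late step 3 passed (18.8% against 18.3%), CEBPB and ATF5 higher and EIF2AK4 lower. Without replicate A, GCN1, SLC3A2 and DDIT4 passed as well, all higher. Without replicate B, ATF5 was lost and SLC7A5 (0.79) was gained.

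With citrate at 12 h, the comparison in which AARS came nearest to the threshold, 4 of 16 passed (25%, against 6.12% of all genes), all higher: ATF5 (1.93), CEBPB (1.33), GCN1 (1.33) and SLC3A2 (0.92). The rest of the list did not go one way: 7 of 16 genes lay above 0, and the list's median was -0.14, against -0.02 over all genes. At 24 h 4 passed with bPEI (EIF2AK4 higher, ATF4, CEBPG and SLC3A2 lower), 25% against 4.55% of all genes. With PEG 2 passed (EIF2AK4 higher, VLDLR lower), 12.5% against 2.83%, and with citrate 5 (EIF2AK4 higher, CEBPG, DDIT3, SLC7A11 and VLDLR lower), 31.2% against 4.2%. All were set against the same 2 NoNP libraries. Without NoNP 24 h replicate A, SLC3A2 alone passed with bPEI (-1.90) and with PEG (-1.14), CEBPG (-3.14) and SLC3A2 (-1.34) passed with citrate, and EIF2AK4 passed with none. Without replicate B, EIF2AK4 and DDIT3 passed with all 3 coatings, VLDLR with PEG and citrate, and CEBPG, SLC7A11 and GCN1 with citrate. ATF4 and CEBPG with bPEI were lost in both cases. At 6 h GCN1 was higher with bPEI (1 of 16, 6.25% against 2.01%), and 0 passed with PEG or citrate by limma.

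Among the charging helpers and scaffold proteins, 11 tested, 3 rose from 6 to 12 h, which is 27.3% against 22.2% of all genes that rose and 43.5% that changed: EEF1E1, a scaffold protein of the multi-synthetase complex (1.26), MTFMT, which formylates the mitochondrial initiator tRNA (1.11), and GATB, of the enzyme that corrects mitochondrial glutamine tRNA (0.35). From 12 to 24 h EEF1E1 fell by 0.65 and AIMP2, another scaffold protein, fell by 0.48, while SEPSECS, of selenocysteine synthesis, rose by 1.10, 3 of 11 in all (27.3% against 38.4%). SEPSECS was lost without NoNP 24 h replicate A, and without replicate B DTD1 (-0.42) was gained. EEF1E1 was also lower with bPEI at 6 h, with a difference of -1.23 (limma adjusted p = 0.0487). Of 9 mitochondrial translation factors 3 rose in the early step (GFM1, MTRF1 and MTRF1L), 33.3% against 43.5% of all genes changed. In the late step 1 (MRRF) fell, 11.1% against 38.4%, and without NoNP 24 h replicate A TUFM (0.29) was gained. Of 7 tested cytosolic elongation factors, EEF1A1 and EEF2K fell from 6 to 12 h (28.6% against 43.5%) and rose from 12 to 24 h, when EEF1B2 and EIF5A fell (57.1% against 38.4%). The late calls of EEF1A1, EEF1B2 and EEF2K were lost without NoNP 24 h replicate B, and that of EIF5A without replicate A.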

How the data were processed

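TempO-Seq signal values for 13133 genes in 32 libraries were deposited by the authors as reads divided by 1 factor per library. Each value gave whole reads after multiplying back (100% within 0.01 reads), and the factors matched recomputed median-of-ratios factors. Aligner, counting, genome build and probe-to-gene step: not given in the sources used here. Raw counts had been allowed for in the design, and the test for normalized signal applied. All columns mapped to a sample. The signal deposited by the authors was taken to log2 after adding 1, genes with a mean of at least 5 were tested (9324), and limma (3.58.1, R 4.3.3; trend, robust) was fitted to the 12 groups, with Benjamini-Hochberg adjustment over all tested genes and a threshold of 0.05. edgeR (4.0.16) quasi-likelihood tests on recovered reads, no filter, a mean of at least 20, a pseudocount of 5, equal library totals, a replicate block, fits of only the groups compared and fits without each library were alternatives. The scripts were tested on simulated data. The members, lists, tests and naming rule were chosen with earlier results of these data known. Members past the threshold anywhere, the 2 smallest p-values in coating comparisons with fewer calls, and AARS and AARS2 are named. Other members and genes named beyond that rule (EARS2, for example) were chosen after their values were seen. The values of 1 member are not reported here, and that member stays in the counts. The lists come from general knowledge. Promoter windows are RefSeq's, with the first listed start of each gene.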

Additional observations from a re-analysis of the deposited data

How the results depend on the processing

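Among 28 differences named for a member past the threshold, 539 of 668 alternative values kept direction and call, 129 kept direction but not the call, and 0 changed direction. With no filter, a mean of at least 20 or only the groups compared, the log2 difference equals that of the main fit. Direction could not change in those settings, and the 28 were chosen for having passed in these same data. Citrate against NoNP at 12 h went from 0 members to 1 with a mean of at least 20, 1 with equal library totals, 1 with edgeR, 3 with only the groups compared, and 4 (AARS, HARS, NARS and SARS2) without the 2 libraries that stand apart, which are bPEI 6 h replicate B and NoNP 24 h replicate B. At 24 h bPEI went from 2 to 1 without a filter and to 0 with equal totals or only the groups compared, and without both libraries CARS and SARS were lost and 3 other members (EARS2, IARS and SARS2) passed. PEG went from 0 to 1 (FARSB) with equal totals and 4 without both libraries. Citrate went from 2 to 1 with edgeR, 0 with only the groups compared and 6 without both libraries. Differences among coatings at 12 h went from 0 to 1 with only the groups compared (SARS2) and 2 without both libraries (QARS and SARS). NoNP from 6 to 12 h went from 2 to 1 with equal totals, and from 12 to 24 h from 5 to 0 with only the groups compared. Over the 4 exposures the early step went from 6 to 10 with only the groups compared, and the late step from 11 to 5 over the 3 coatings. With equal library totals the calls over all genes moved from 571 to 657 with citrate at 12 h. They moved from 187 to 138 with bPEI at 6 h. Shares of all genes are not given for the other settings in this section, so the counts cannot be read as particular to the members. The 2 libraries that stand apart are in neither group of the 12 h citrate comparison. Its differences stayed at 0.70 (AARS), 1.29 (SARS2) and -0.90 (NARS), and only the spread and adjustment differed. The cause of the other changes was not tested.

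Leaving out 1 library in turn gave 0 to 1 members with bPEI at 6 h (1, YARS, without bPEI replicate A) and 0 to 1 with citrate at 12 h (1, AARS, without citrate replicate C). At 24 h it gave 0 to 5 with bPEI, 0 to 6 with PEG and 0 to 5 with citrate, highest without NoNP replicate A (for citrate equally without B). It gave 0 to 2 for NoNP from 6 to 12 h, 4 to 14 for NoNP from 12 to 24 h and 0 to 5 for the interaction. Where a group kept 1 library, that library was assumed to vary like the other groups. Equal library totals moved the median of all genes at 24 h from 0.10 to 0.20 with bPEI, 0.05 to 0.18 with PEG and 0.04 to 0.21 with citrate on the log2 scale.

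The labels do not say that a replicate letter marks a shared culture or batch, and the letters were not used as pairs. Deviations of libraries with the same letter had a median correlation of 0.0057 over 156 pairs, with 18 over 0.1. Pairs with different letters had a median of -0.0033 over 312 pairs, with 20 over 0.1. In groups of 2 the deviations are mirror images, which limits both medians. Whether the letters carry a shared signal was not tested. Of 32 libraries 15 correlated best with one of their own letter, which 33.3% of all pairs between groups share. A replicate block gave 6 members for the early step, 10 for the late step, 2 and 6 for the NoNP steps, 2 with bPEI and 2 with citrate at 24 h, and 0 in the other comparisons. FARS2, IARS, MARS, MARS2 and TARS2 rest on medians of 8.5 to 12.5 reads per library, and which size of change this depth could show was not measured.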
